A study of Homo sapiens with 2 samples.

Results

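The 9 genes described here encode proteins that make, convert, break down or carry retinoids: CYP26A1, CYP26B1, DHRS3, RDH10, RBP4, STRA6, CRABP2, RETSAT and ALDH1A1. They were chosen by name for these roles, with earlier results of these data known. All 9 were found among the 60623 gene entries of the deposited counts. The cells were HepG2, a line from a human hepatocellular carcinoma labelled wild type, and RNA was sequenced from 2 groups with 1 library each and a single batch label. Both groups received 1 mM FFA, a mixture of oleic and palmitic acid at 2 to 1 bound to albumin, for 24 h to load the cells with lipid. The FFA group received this alone, and in the FFA + 9-cis-RA group 10 μM 9-cis-RA was added, an isomer of retinoic acid that binds both RAR and RXR nuclear receptors. The methods of the study have 9-cis-RA follow the FFA for 24 h, while its other text speaks of co-treatment, so the order is not settled here, and its solvent DMSO was matched across groups. The libraries are called FFA-only and 9-cis-RA below, and a tumor line is a limited model of a hepatocyte. The question is how the genes that control the supply of retinoic acid differed once the cells were given retinoic acid from outside.

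Vitamin A travels in blood as retinol on the carrier RBP4 and can enter cells through the membrane receptor STRA6. Inside the cell, RDH10 oxidizes retinol to retinaldehyde, and ALDH1A1 oxidizes retinaldehyde to retinoic acid. DHRS3 runs the first step backwards, from retinaldehyde to retinol, and RETSAT saturates a double bond of retinol. CRABP2 carries retinoic acid to its nuclear receptors, and the CYP26 enzymes hydroxylate it for disposal. In liver, hepatocytes secrete RBP4, and stellate cells keep most of the vitamin A as retinyl esters.

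The start of CYP26A1 is known for a retinoic acid response element, a pair of nuclear receptor half-sites of 6 bases in direct repeat. Direct repeats with spacers of 1, 2 and 5 bases (named DR1, DR2 and DR5) were searched on both strands in RefSeq promoter windows of GRCh38.p14. Each window runs from 250 bases before to 50 bases after an annotated start. Windows were at hand for 8 of the 9 genes, 17 windows in all, and 1 of them held a repeat: a DR5 in CYP26A1. Among 35116 windows of all genes on the main chromosomes, 0.0883% held a DR5, 0.131% a DR1 and 0.0399% a DR2. A single half-site was common, in 38.6% of all windows, and occurred in 7 of the 17 windows, from 5 of the genes. Stretches of 30 bases are shown for these 5 genes, because CYP26A1 is the gene with the largest difference below and its stretch holds the only pair. Each is written 5′ to 3′ on the strand of its gene, with the half-sites in capitals. Elsewhere the half-site nearest to an annotated start is shown. For DHRS3 that start lies within the gene body, and the window at its outermost start, from 12618161 to 12618460, held no half-site.
CYP26A1: ttaaagaTGAACTttgggTGAACTaattgt
DHRS3: ttcttgcactttTGACCTtccccacaccag
STRA6: gctcagcagcacTGACCTttgtcttcatgt
RETSAT: ggagagccgggaGGGTCAatcatcacctga
CRABP2: gGGTTCAatggagctagggccagctacggc
The CYP26A1 stretch lies at chr10:93073796-93073825 on the plus strand, and its repeat starts 90 bases and ends 74 bases before the RefSeq start. In GENCODE annotation the repeat also falls within the first untranslated exon of a longer CYP26A1 transcript, from 93073475 to 93073834. The other stretches are on the minus strand, DHRS3 at chr1:12596767-12596796, STRA6 at chr15:74212264-74212293, RETSAT at chr2:85354658-85354687 and CRABP2 at chr1:156706005-156706034. A match is a description of the letters in these windows and does not show that a receptor was bound.

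The totals were 60821539 counted fragments for FFA-only and 57669670 for 9-cis-RA. Counts were divided by size factors and 1 was added, and every log2 fold change is 9-cis-RA over FFA-only. A gene was compared if both libraries together held 10 or more counts, which left 20431 genes and all 9 retinoid genes. With 1 library per group no p-value, SD or standard error can be given. Each value has an exact 95% counting interval that covers counting error only and compares these 2 libraries, not the conditions. The interval is that of the ratio without the added 1, which differs from the printed value where counts are few. All 9 hepatocyte markers checked were compared. Their summed level was 14296 TPM, a level scaled to gene length and library total, in the FFA-only library and 12220 in the other. In the FFA-only library they ranged from TTR at 6.78 TPM to AFP at 4067. Of the 8 stellate cell and fibroblast markers 3 were compared, with sums of 19.6 and 13.9 TPM carried by ACTA2, and LRAT and DCN had 0 counts. Of the 6 leukocyte markers 4 were compared, at 159.6 and 98.9 TPM carried by LYZ, with PTPRC at 0, and of the 5 endothelial markers 4 were compared, at 1.35 and 0.883 TPM, with KDR at 0.

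Among the 9 genes, CYP26A1, CYP26B1 and DHRS3, which remove retinoic acid or its precursor retinaldehyde, had more counts in the 9-cis-RA library, and RDH10 and ALDH1A1, which act in its synthesis, had fewer. The carriers and the receptor differed among themselves, with STRA6 at 0.73, RBP4 at -0.087 and CRABP2 at -1.26 on the log2 scale. With a log2 fold change past 1 or -1 as the call, 1 of the 9 genes was higher (CYP26A1), against 3.37% of all 20431 compared genes, and 2 were lower (ALDH1A1 and CRABP2), against 4.90%. The counting interval lay above 0 for 5 of the 9 genes, against 22.5% of compared genes, and below 0 for 3, against 25.7%. An interval narrows as counts grow, so this call depends on depth as well as on the size of a difference. The median of the 9 genes was 0.22, beside -0.020 over all compared genes. In bulk RNA, a change in the number of expressing cells and a change in RNA per cell cannot be told apart.

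**Figure D1:**
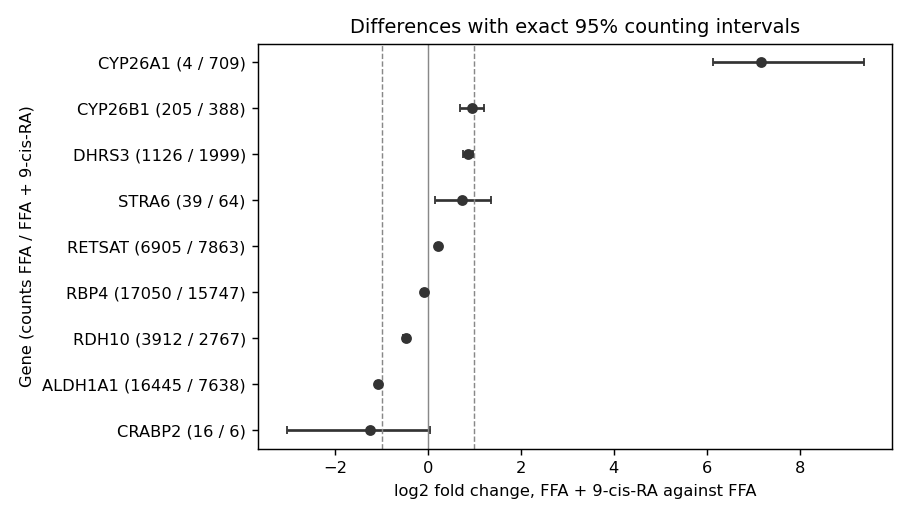
Log2 fold change of FFA + 9-cis-RA against FFA (horizontal axis) for each of the 9 genes, with its counts in the FFA and FFA + 9-cis-RA libraries beside its name. Points are single values from 1 library per group, bars are exact 95% counting intervals and dashed lines mark -1 and 1. CYP26A1 stands at 7.17, far from the other genes, and the intervals of all genes but CRABP2 leave out 0.

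CYP26A1, the main retinoic acid hydroxylase of liver, had 4 counts in the FFA-only library and 709 in the 9-cis-RA library. It was barely detected without 9-cis-RA and clearly expressed with it. The log2 fold change was 7.17 (95% counting interval 6.13 to 9.38), the largest of all 20431 compared genes in either direction. Without the added 1, the ratio of normalized counts was 181-fold, with an interval from 70.3 to 665, which is wide because it rests on 4 counts. Those 4 counts are 0.0658 CPM, counts scaled to the library total, close to the 0.0493 CPM that a count of 0 allows at this depth. The gene (ENSG00000095596) lies on chromosome 10 from 93073475 to 93077885 on the plus strand, with 7 exonic blocks and 2964 exonic bases. Another entry, ENSG00000285846, covers 25.3% of these bases on the same strand, where reads were not counted.

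CYP26B1, a second retinoic acid hydroxylase, had 205 counts in the FFA-only library and 388 in the 9-cis-RA library. It was already present without 9-cis-RA, and its log2 fold change was 0.94 (95% counting interval 0.70 to 1.20), just under the threshold. It lies on chromosome 2 from 72129238 to 72148038 on the minus strand. The third enzyme of the family, CYP26C1, had 0 counts in both libraries. The pair therefore changed places per length: CYP26A1 made up 3.20% of the summed TPM of CYP26A1 and CYP26B1 in the FFA-only library (exact interval 0.883 to 7.90%) and 75.6% in the 9-cis-RA library (73.2 to 77.8%). Their summed level was 2.01 TPM in the FFA-only library and 16.4 TPM in the 9-cis-RA library. The shares and sums use the full CYP26A1 length, with the 25.3% of bases where reads were not counted. They therefore understate CYP26A1, and the intervals do not cover this. Over countable bases CYP26A1 stood at 0.0845 TPM in the FFA-only library and 16.2 in the other, and CYP26B1 at 1.91 and 3.93.

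DHRS3, which returns retinaldehyde to retinol, had 1126 and 1999 counts. This is a log2 fold change of 0.86 (95% counting interval 0.75 to 0.96), a 1.81-fold higher normalized count. The gene lies on chromosome 1 from 12567910 to 12618210. RETSAT, the retinol saturase on chromosome 2 from 85341955 to 85354531, had 6905 and 7863 counts. Its log2 fold change of 0.22 (95% counting interval 0.17 to 0.26) is small but precisely counted.

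ALDH1A1, which makes retinoic acid from retinaldehyde, had 16445 counts in the FFA-only library and 7638 in the 9-cis-RA library. The normalized count was 2.11-fold lower with 9-cis-RA, a log2 fold change of -1.08 (95% counting interval -1.12 to -1.04). A change of this size was rare among genes with many counts. Of the 10298 genes with at least 1000 counts, a minimum chosen after the values were seen, 0.660% lay below -1 and 0.204% above 1. ALDH1A1 lies on chromosome 9 from 72900671 to 73080442. Hepatocyte markers moved both ways in the same library. Of the 9 checked, 5 had an interval below 0, against 25.7% of all compared genes, and 4 above 0, against 22.5%. Intervals narrow with many counts, so even SERPINA1 at 0.036 and APOA1 at 0.039 are among those above 0. The markers ranged from AFP at -0.99 and ALB at -0.70 to FGB at 0.84. Their part in the difference of ALDH1A1 was not tested.

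RDH10, the enzyme of the retinol oxidation step, had 3912 and 2767 counts and thus a log2 fold change of -0.47 (95% counting interval -0.54 to -0.40). It lies on chromosome 8 from 73294602 to 73325281. RDH10 and DHRS3 catalyze opposite reactions, and their order per length was reversed between the libraries. The RDH10 level was 2.29 times that of DHRS3 in the FFA-only library (exact interval 2.14 to 2.45) and 0.913 times in the 9-cis-RA library (0.861 to 0.967). These intervals cover counting error only. The order also rests on the exonic lengths used, 5331 bases for RDH10 and 3515 for DHRS3, so the reversal is not firm.

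RBP4, the retinol carrier that liver secretes into plasma, had 17050 and 15747 counts. It was the most abundant of the 9 genes, and its log2 fold change of -0.087 (95% counting interval -0.12 to -0.056) was the smallest in size. This direction is not firm: once a loess trend on exonic length was removed, the value was 0.022. RBP4 lies on chromosome 10 from 93591687 to 93601744, 0.514 Mb from CYP26A1.

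STRA6, the membrane receptor for RBP4, had 39 and 64 counts over 22 exonic blocks with 7669 bases. Its log2 fold change was 0.73 with a wide interval, 0.15 to 1.36. The gene lies on chromosome 15 from 74179466 to 74212267. CRABP2, the cytosolic retinoic acid carrier on chromosome 1 from 156699606 to 156705816, had 16 and 6 counts. Its log2 fold change of -1.26 is past the threshold, but the interval runs from -3.03 to 0.040 and includes 0. A pseudocount of 5 in place of 1 moved it to -0.91, and no difference in CRABP2 was detectable at this depth.

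**Figure D2:**
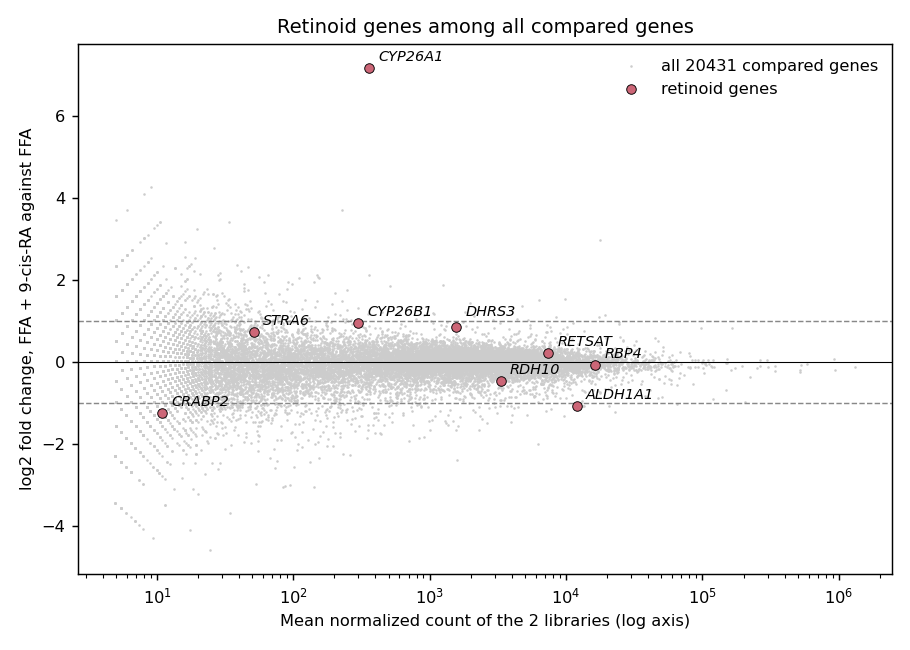
Log2 fold change of FFA + 9-cis-RA against FFA (vertical axis) over the mean normalized count of both libraries (horizontal log axis) for the 20431 compared genes in gray, with the 9 retinoid genes named. The cloud narrows as counts grow, so ALDH1A1 at -1.08 and DHRS3 at 0.86 sit at its edges while CRABP2 at -1.26 lies inside the spread of genes with few counts.

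Levels between genes were compared as TPM, computed from the counts and the exonic lengths in the files. Each length joins all annotated exons of a gene, so it can exceed a single transcript and lower the TPM. In the FFA-only library the order was RBP4 at 557 TPM, ALDH1A1 at 275.9, RETSAT at 81.3, RDH10 at 35.0 and DHRS3 at 15.3. The other four were low, with CYP26B1 at 1.95, CRABP2 at 0.705, STRA6 at 0.242 and CYP26A1 last at 0.0643. With these lengths, neighbors in this order did not overlap in their exact Poisson intervals. In the 9-cis-RA library RBP4 stood at 558 TPM, ALDH1A1 at 139, RETSAT at 100.4, DHRS3 at 29.4 and RDH10 at 26.8. CYP26A1 was at 12.4, CYP26B1 at 4.0, STRA6 at 0.432 and CRABP2 at 0.287, and the intervals of only the last pair overlapped. CYP26A1 moved from the ninth place to the sixth, and RBP4, ALDH1A1 and RETSAT kept the first 3 places. ALDH1A1 stayed above both hydroxylases per length. It had 4291 times the per-length level of CYP26A1 in the FFA-only library (exact interval 1676 to 15750) and 11.2 times in the 9-cis-RA library (10.4 to 12.2). Against CYP26B1 the ratio was 142 (123 to 163) and 34.8 (31.4 to 38.6). These values use the full gene lengths. Leaving out the bases that CYP26A1 shares with the overlapping entry raised its level to 0.0845 and 16.2 TPM. On the same basis ALDH1A1 stood at 270.8 and 136.4 TPM, so its ratios to CYP26A1 would be smaller than those given. The intervals do not cover this and were not recomputed, so the separation of CYP26A1 from STRA6 in the FFA-only library is not firm.

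**Figure D3:**
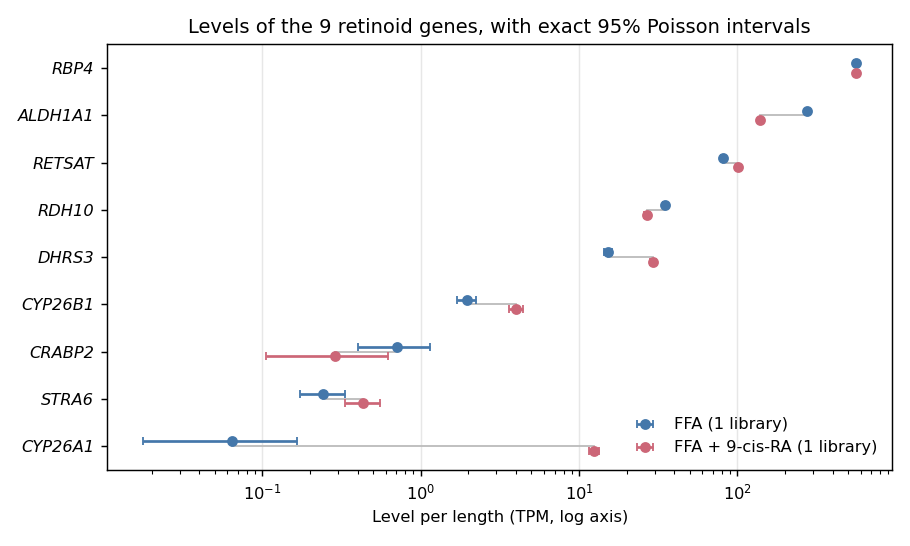
Level per length in TPM (horizontal log axis) of each of the 9 genes in the FFA-only library (blue) and the 9-cis-RA library (red), with exact 95% Poisson intervals that cover counting error only. CYP26A1 is lowest at 0.0643 in the FFA-only library and reaches 12.4 with 9-cis-RA, RBP4 stays near 557, and ALDH1A1 falls from 275.9 to 139.

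The wider retinoid pathway was read from 7 lists, also chosen with earlier results known. They hold 52 genes, of which 43 are not among the 9. Of these 43 other genes, 32 were compared, 2 lay above 1 and 3 below -1, beside the same 3.37% and 4.90% of all genes. Their median log2 fold change was -0.089. The interval lay above 0 for 8 of the 32, near the 22.5% of all compared genes, and below 0 for 12, against 25.7%. Another 11 had too few counts to compare, namely CYP26C1, ADH1A, ADH1B, ADH1C, ADH7, CRABP1, RBP7, LRAT, LPL, BCO1 and BCO2. Of these, 7 had 0 counts in both libraries, which allows up to 0.0493 CPM in the FFA-only library and 0.0520 CPM in the 9-cis-RA library. They include LRAT, the enzyme that makes retinyl esters in stellate cells. The 2 genes that cleave carotenoid precursors, BCO1 and BCO2, had 1 to 5 counts.

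Genes of retinol and retinaldehyde oxidation were mostly lower in the 9-cis-RA library. Of 13 listed genes 9 were compared, with 4 below -1, against 4.90% of all compared genes, 1 above 1, against 3.37%, and a median of -0.55. ALDH8A1 is an aldehyde dehydrogenase that has been described as acting on 9-cis-retinaldehyde. It had 289 and 68 counts and thus a log2 fold change of -2.04 (95% counting interval -2.46 to -1.67). ADH4, an alcohol dehydrogenase that oxidizes retinol among other alcohols, had 754 and 313 counts, a value of -1.24 (-1.44 to -1.05). ALDH1A2 had 139 and 93 counts and a value of -0.55 (-0.95 to -0.16), and ALDH1A3 had 20 and 6 counts and a value of -1.56 (-3.31 to -0.34). All 3 ALDH1A paralogs thus had fewer counts with 9-cis-RA, but ALDH1A1 made up 99.6% of their summed TPM in the FFA-only library and 99.5% in the 9-cis-RA library. RDH16 was the gene above 1, at 1.02 with 3 and 7 counts and an interval from -0.88 to 3.83.

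The list of retinaldehyde reductases and retinol saturase had 8 genes, all compared, with a median of 0.015 and none past 1 or -1. DHRS3 was its highest and AKR1B10 its lowest gene. AKR1B10, an aldo-keto reductase that acts on retinaldehyde and many other carbonyl compounds, had 48789 and 26663 counts and thus a log2 fold change of -0.84 (95% counting interval -0.87 to -0.82). At 1311 and 778 TPM it was far more abundant than DHRS3. RDH11 at -0.034, RDH13 at 0.065, RDH14 at -0.064 and DHRS4 at -0.17 had intervals that held 0. DHRS3, RETSAT and RDH12, at 0.31, had intervals above 0.

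Among 12 genes for carriers and uptake, 10 were compared, with a median of -0.23. RBP2 and RBP5, cellular retinol-binding proteins, were lower at -0.91 (95% counting interval -1.21 to -0.61) and -0.74 (-0.92 to -0.57), from 272 and 723 counts to 142 and 423. TTR, which holds RBP4 in plasma as a complex, had 341 and 278 counts. RBP4 stood at 82.1 times TTR per length in the FFA-only library (exact interval 73.8 to 91.7) and 93.0 times in the 9-cis-RA library (82.6 to 105).

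Of 8 genes for retinyl ester storage and release, 6 were compared and none was past 1 or -1. PNPLA2, the adipose triglyceride lipase, had 3411 and 5478 counts and thus a log2 fold change of 0.71 (95% counting interval 0.65 to 0.77). CES1, a carboxylesterase, had 892 and 1332 counts and a value of 0.61 (0.48 to 0.73). LIPE had 58 and 38 counts and a value of -0.57, with an interval from -1.21 to 0.032. Among the 6 receptor genes, RARB was the only one past 1, at 2.77 with 6 and 46 counts. RXRA was at -0.44, RXRB at 0.30 and RARA at 0.20, each with an interval off 0.

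**Figure D4:**
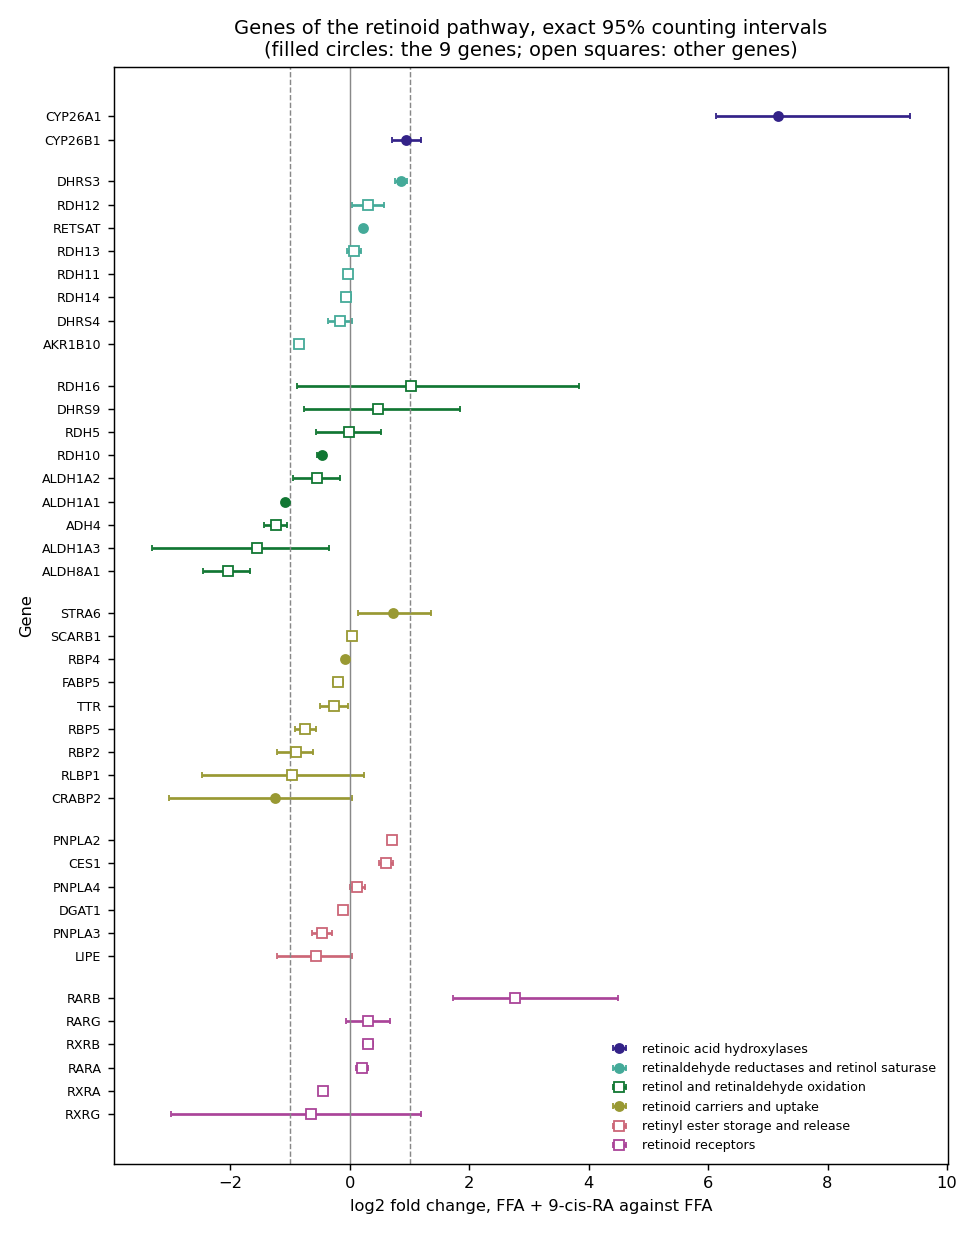
Log2 fold change of FFA + 9-cis-RA against FFA (horizontal axis) with exact 95% counting intervals for 40 of the 41 compared genes of the pathway lists, grouped and colored by list and sorted within each. Filled circles are the 9 genes and open squares the other genes, and dashed lines mark -1 and 1. In the oxidation list 6 of 9 genes have intervals below 0, against 25.7% of all compared genes, from RDH10 at -0.47 to ALDH8A1 at -2.04.

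CYP26A1 and RBP4 lie near each other, so the genes around them were examined by position. Within 1 Mb of CYP26A1 there were 41 other entries, of which 18 were compared. Their median log2 fold change was 0.11. Of these 18, 2 lay above 1, against 3.37% of all compared genes, and 2 below -1, against 4.90%. The nearest compared entry was ENSG00000279607, a noncoding RNA entry that ends 0.008 kb before CYP26A1 begins, on the same strand. It had 0 counts in the FFA-only library and 16 in the 9-cis-RA library. Setting the FFA-only library at a floor of 3 counts gives 5.44-fold, which leaves out the counting error of the 16. The 95% counting interval of its log2 ratio starts at 1.97 and has no upper end. Reads from an extended CYP26A1 transcript and from this entry cannot be told apart by gene counts. The nearest compared protein-coding genes were EXOC6, 14.0 kb away with 750 and 828 counts at 0.17, and MYOF, 228.5 kb away with 95 and 67 counts at -0.47. The other entries past the threshold had few counts: PLCE1 had 3 and 7, FFAR4 16 and 5, and PDE6C 20 and 4. The intervals of FFAR4, at -1.48, and PDE6C, at -2.05, lay below 0, and that of PLCE1, at 1.02, held 0. HHEX was at -0.25, IDE at 0.22, KIF11 at 0.14, CEP55 at 0.084, FRA10AC1 at 0.092, SLC35G1 at 0.18, CPEB3 at 0.21 and MARCHF5 at -0.014. The pseudogenes PIPSL, NHP2P1 and EIF2S2P3 had 12 to 39 counts a library and values of 0.39, 0.13 and 0.027.

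**Figure D5:**
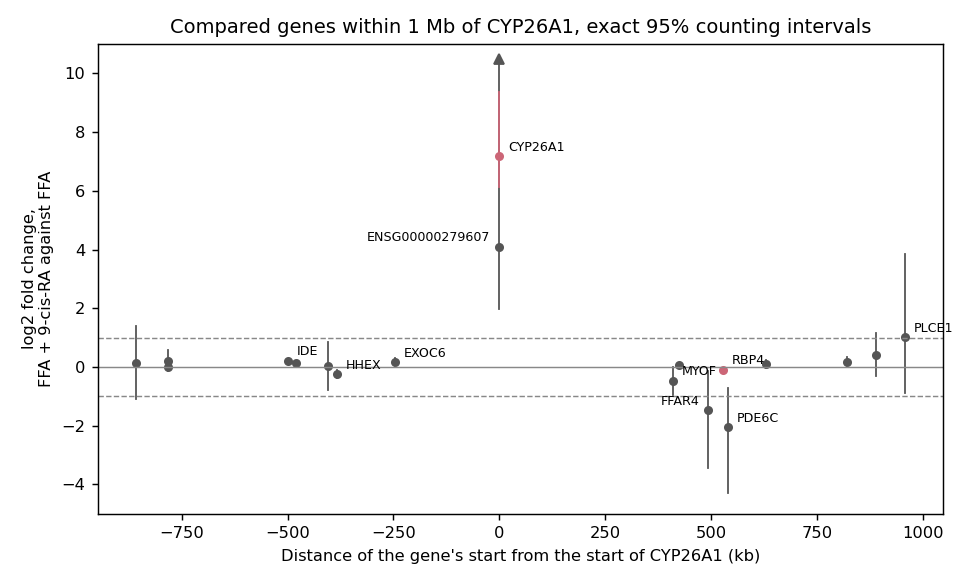
Log2 fold change of FFA + 9-cis-RA against FFA (vertical axis) of compared genes within 1 Mb of CYP26A1, over the distance of each gene's start from that of CYP26A1 in kb (horizontal axis). Bars are exact 95% counting intervals and the triangle marks an interval with no upper end, for ENSG00000279607, which had 0 and 16 counts. CYP26A1 at 7.17 and RBP4 at -0.087 are in red.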

How the data were processed

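RNA sequencing of HepG2 cells treated with FFA, without or with 9-cis-RA, gave 2 libraries, 1 per group. The deposited values are raw counts of fragments on each gene, made by the authors with featureCounts 2.0.1 per the file headers, from poly(A) RNA and stranded libraries. Read pairs with both ends mapped were counted on the reverse strand (setting 2) with a fragment length check. Multimapping reads, and reads on more than 1 gene, were left out. The build is GRCh38 per the labels. The aligner and annotation release are not given in the sources used here.

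Symbols were matched by Ensembl identifier. DESeq2 1.42.0 gave size factors and edgeR 4.0.16 the TMM alternative, in R 4.3.3. No model could be fitted with 1 library per group. Clopper-Pearson intervals of each gene's share of counts, Poisson intervals, TPM and loess trends (span 0.3) were computed in Python 3.11.15 (scipy 1.17.1, statsmodels 0.14.6) and drawn with matplotlib 3.10.9. A pseudocount of 1 understates the change of genes with few counts. Named genes were the 9 retinoid genes, pathway genes past 1 or -1, or past 0.5 in size with an interval off 0, and the compared neighbors of CYP26A1; any other pathway or marker gene was picked as an example with its value in view. The genes and lists were chosen with earlier results of these data known. Steps were tested on simulated data. The values of 1 gene of the pathway lists are not reported here, though it is counted in its list.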

Additional observations from a re-analysis of the deposited data

How the results depend on the processing

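No paired analysis was possible because each group has 1 library. The alternatives tried were scaling by TMM or by total counts, a pseudocount of 0.1 or 5, no count minimum, at least 50 counts, removal of trends on length or expression, and the whole interval past 1. CYP26A1 lay above 1 (6.33 to 7.46) and ALDH1A1 below -1 (-1.08 to -1.01) in each; CYP26B1 (0.93 to 0.99) and DHRS3 (0.84 to 0.90) stayed under 1. The count of retinoid genes below -1 dropped from 2 to 1, ALDH1A1, with a pseudocount of 5, with at least 50 counts, which CRABP2 does not reach, and with the whole interval past 1. The median of the 9 genes was 0.26 with total counts, and that of the 8 genes left with at least 50 counts was 0.47. Other pathway genes above 1 numbered 1, RARB, with a pseudocount of 5 and with at least 50 counts. The sign of RBP4 turned, to 0.022, with the length trend removed. With 1 library per group, differences between cultures and effects of 9-cis-RA cannot be told apart.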

Other observations

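With 2 libraries the pattern of a gene is a single ratio, so likeness to the retinoid genes past the threshold was read as the difference in log2 fold change among genes with at least 100 normalized counts in a library. CYP26A1 had no close neighbor: the nearest genes were ALPG, 3.47 away at 3.70, and CYP24A1, which encodes the vitamin D hydroxylase, 4.2 away at 2.98. The genes nearest to ALDH1A1 were MT1E, a metallothionein gene with 5420 and 2517 counts, and FAM157A with 111 and 51 counts, both at -1.08. Those nearest to CRABP2 were MIR193BHG at -1.26 and LNP1 at -1.25. CRABP2 itself had 16 and 6 counts and an interval from -3.03 to 0.040, so this nearness is not firm.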
